A study of Mus musculus with 6 samples.

Results

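Expression of 9 mucin and epithelial secretory genes was followed in mouse pancreatic tumour cells in which RNA interference targeted Pthlh, which encodes a secreted relative of parathyroid hormone. The genes were Muc1, Muc4, Muc13, Muc20, Agr2, Spdef, Tspan8, Ceacam1 and Gcnt3. They were chosen by name from the 24493 genes of the deposited table of TPM (transcript abundance per length, scaled to a total of 1000000 per library), and all 9 were found there. The cells are KPCY cells on a C57BL/6 background, which come from a genetically engineered mouse model of pancreatic cancer and bear a yellow fluorescent lineage label. The 6 libraries were 2 of cells with hairpin 2 against Pthlh (the labels' shPthlh oligo #2), 2 with hairpin 1 (oligo #1) and 2 with a non-targeting hairpin, shNT. All 3 groups thus carry the alleles of that model and a hairpin. The condition label is of tumour cells sorted from animals, whereas growth in DMEM and transduction appear under the protocols, and which came just before RNA extraction is not settled. The series design names 2 parental clones without saying which library or hairpin belongs to which. Clone and hairpin therefore cannot be told apart here. Nothing says that the libraries of a group came from separate cultures or animals, so p-values cover only the scatter of these libraries and that scatter may be technical.

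Mucins are heavily O-glycosylated proteins that coat epithelial surfaces. Muc1, Muc4, Muc13 and Muc20 are membrane-bound mucins, with a large glycosylated ectodomain and a short tail inside the cell. Gcnt3 is a Golgi enzyme that adds the core branch on which many mucin sugar chains are extended, and Agr2 is a disulphide isomerase of the endoplasmic reticulum that helps mucins to fold. Spdef is an ETS-family transcription factor of goblet cell maturation. Tspan8 is a tetraspanin, a membrane protein that organises partner proteins in the plasma membrane, and Ceacam1 is an immunoglobulin-family adhesion protein of epithelial and immune cells. Several of these genes are known as markers of gland-forming, mucin-producing states of pancreatic tumours.

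The promoter windows of Muc1, Tspan8 and Ceacam1 are shown because these are the members whose levels passed the test between the hairpins. Each runs from 250 bases before to 50 bases after the RefSeq start site (GRCm38.p6) and is written 5′ to 3′ on the strand of the gene. Muc1 lies at chr3:89228806-89229105 on the plus strand, Tspan8 at chr10:115817034-115817333 on the plus strand and Ceacam1 at chr7:25477576-25477875 on the minus strand, and capitals mark the motif matches described next.
Muc1: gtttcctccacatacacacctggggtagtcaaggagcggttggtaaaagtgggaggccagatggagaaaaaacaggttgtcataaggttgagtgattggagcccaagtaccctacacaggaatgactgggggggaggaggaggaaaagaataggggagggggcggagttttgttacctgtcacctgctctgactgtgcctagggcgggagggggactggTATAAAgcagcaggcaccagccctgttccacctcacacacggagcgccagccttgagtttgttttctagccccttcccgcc
Tspan8: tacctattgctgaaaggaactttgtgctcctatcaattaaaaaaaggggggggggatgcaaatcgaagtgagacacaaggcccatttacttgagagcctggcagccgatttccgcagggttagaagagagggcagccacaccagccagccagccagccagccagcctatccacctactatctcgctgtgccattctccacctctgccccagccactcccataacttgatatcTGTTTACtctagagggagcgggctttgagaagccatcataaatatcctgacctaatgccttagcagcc
Ceacam1: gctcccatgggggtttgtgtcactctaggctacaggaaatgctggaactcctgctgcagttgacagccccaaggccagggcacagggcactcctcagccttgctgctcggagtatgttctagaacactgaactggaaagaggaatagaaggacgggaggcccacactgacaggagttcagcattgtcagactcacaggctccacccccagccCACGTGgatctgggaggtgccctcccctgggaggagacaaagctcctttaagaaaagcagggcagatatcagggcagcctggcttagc

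A window was found for 8 of the 9 genes, with Gcnt3 unmatched, and 6 motifs were searched on both strands. The Muc1 window holds TATAAA, the TATA box, at -31 from the start site, and the Muc4 window holds it at -36. TATAAA occurs in 13.6% of the 32851 windows of the genome. The Tspan8 window holds TGTTTAC, the letters bound by FOXA factors, at -18, and the Muc20 window holds the reverse complement at -248. These letters occur in 3.65% of windows. The Ceacam1 window holds CACGTG, an E-box, at -38, as do 7.15% of windows. TGANTCA, the AP-1 motif, was found once in each of the 2 Muc13 windows, at -61 and -179, against 7.81% of all windows. TGACG, a CRE core, was found in the Spdef window at -201, against 20.8%. CAATAAA, a CDX motif found in 4.6% of windows, was found in no member's window, and the Agr2 window held none of the 6. A match of letters describes the window and does not show a bound site.

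Muc1 and Tspan8 were abundant, Gcnt3 was moderate, Ceacam1 was low in 2 of the 3 groups, and the other 5 genes were near 0. Ranked by mean TPM over the 6 libraries, Tspan8 was at place 369 of 24493 with 289 TPM, Muc1 at 874 with 124 TPM, Gcnt3 at 4960 with 18.4 TPM and Ceacam1 at 10346 with 1.97 TPM. These 4 passed the filter of at least 1 TPM in at least 2 libraries, as did 11549 genes in all. The 5 below it were Muc4, Muc13, Muc20, Agr2 and Spdef. Because TPM is scaled by transcript length, these levels can be compared between genes. In bulk RNA, fewer cells expressing a gene and less RNA per cell cannot be told apart. The sequencing depth is unknown, since TPM keeps no trace of it.

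**Figure D1:**
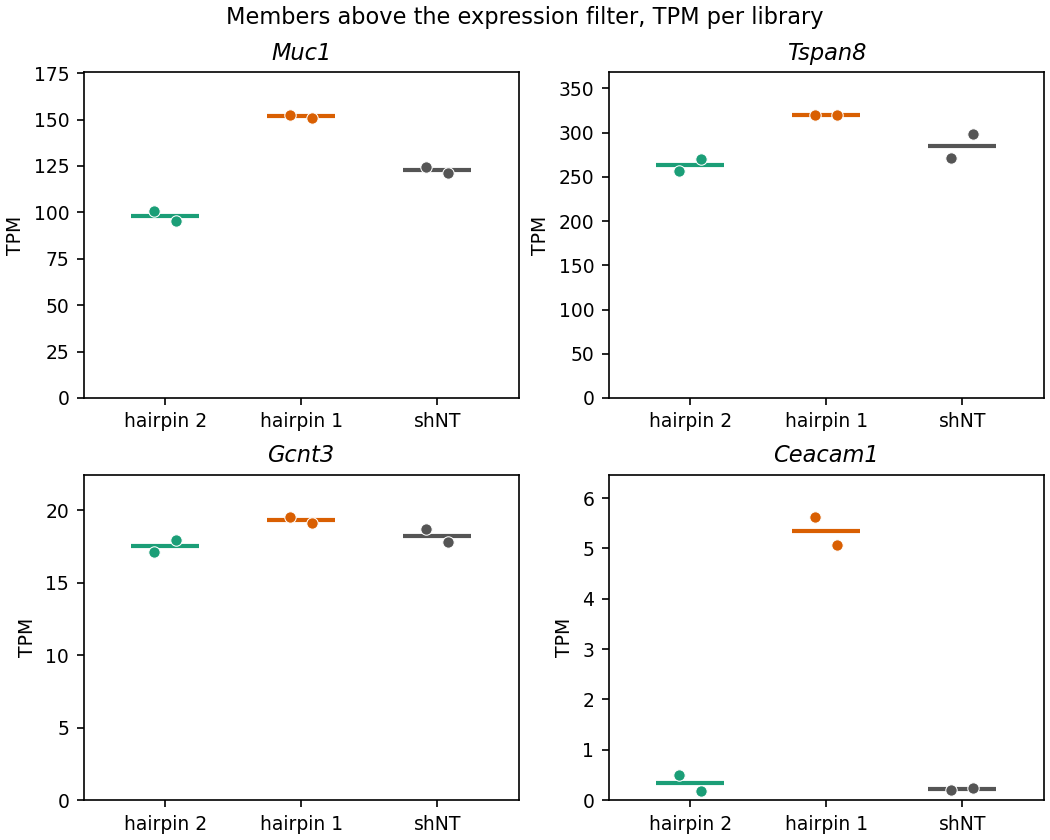
TPM of Muc1, Tspan8, Gcnt3 and Ceacam1 in each library (points) with the group mean (line), for hairpin 2, hairpin 1 and shNT, n = 2 each, each panel with its own axis from 0. Hairpin 1 has the highest mean in every panel, and Ceacam1 is above 5 TPM in both hairpin 1 libraries and at or below 0.508 TPM in the other 4.

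Pthlh itself was under 1 TPM throughout. Its level was 0.0423 and 0.263 in the hairpin 2 libraries, 0 and 0.106 in the hairpin 1 libraries, and 0.752 and 0.966 in the shNT libraries. Short RNA entries, 1282 in all and mostly Mir6236, took 24.0% and 21.9% of TPM with hairpin 2, 20.9% and 20.2% with hairpin 1, and 34.5% and 24.8% with shNT. That share lowers the TPM of every other gene most in the first shNT library. The median change of all tested genes against shNT was 0.09 with hairpin 2 and 0.11 with hairpin 1 (log2 of TPM + 1), and without those entries it was -0.03 and -0.06. Of the markers of ductal tumour epithelium, the keratin Krt19 averaged 436 TPM with hairpin 2, 989 TPM with hairpin 1 and 426 TPM with shNT, while Epcam stayed under 1 TPM in every library. Cldn4 too stayed under 1 TPM. Krt8 averaged 1350 TPM with hairpin 2, 1783 TPM with hairpin 1 and 1479 TPM with shNT. Spint2 averaged 259, 363 and 244 TPM in the same order, and Sox9 4.88, 8.93 and 4.96 TPM. Of the 8 such markers tested, 4 were called higher and 3 lower with hairpin 1 than with shNT. Of all tested genes, 32.1% were called higher and 18.1% lower. Other such markers were lower with hairpin 1 than with shNT in limma: Krt18, at 1345, 1094 and 1478 TPM in the means of hairpin 2, hairpin 1 and shNT (adjusted p = 0.00376 for hairpin 1), Krt7, at 386, 311 and 383 TPM (0.00566), and Cdh1, at 282, 235 and 299 TPM (0.00529). All 7 fibroblast markers and all 5 endothelial markers were under 1 TPM in every library. Myeloid markers, of which 6 of 8 stayed under 1 TPM and Adgre1 was at 0, summed to 3.49 to 4.47 TPM with hairpin 2, 1.66 to 2.73 TPM with hairpin 1 and 2.12 to 3.27 TPM with shNT. Of the lymphocyte markers 5 of 6 stayed under 1 TPM, with Cd3e and Nkg7 at 0, and of the acinar and islet markers 7 of 9, with Cpa1, Pnlip, Ins1, Ins2 and Gcg at 0. The RNA of the acinar and islet markers was mostly Cela1. Their sum was 11.8 to 12 TPM with hairpin 2, 13.9 TPM with hairpin 1 and 14.5 to 20.1 TPM with shNT. Cela1 was called lower in the joint comparison of both hairpins with shNT (limma, adjusted p = 0.0398), as were 12.1% of all tested genes. It was called with neither hairpin alone, and its shNT libraries had 14.2 and 19.5 TPM. Markers of gut goblet, Paneth and gastric mucous cells, 7 of 10 under 1 TPM and Fcgbp, Zg16, Defa24 and Lyz1 at 0, summed to 5.93 to 7.02 TPM with hairpin 2, 2.69 to 3.23 TPM with hairpin 1 and 3.79 to 4.19 TPM with shNT. The lower sum with hairpin 1 went with Gkn2, which averaged 3.16 TPM with hairpin 2, 0.711 TPM with hairpin 1 and 2.39 TPM with shNT. Of the 3 tested markers of this list, limma called 2 higher and 1 lower with hairpin 1 than with shNT. Muc5ac changed by 0.39, Clca1 by 0.47 and Gkn2 by -1.02 (log2). Clca1 passed the filter only through the 2 hairpin 1 libraries. The part of the markers above in the members' levels was not tested.

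Muc1 (chr3:89229057-89233381, plus strand, GRCm38) separated all 3 groups. Muc1 had 101 and 95.2 TPM with hairpin 2, 152.6 and 151 TPM with hairpin 1, against 125 and 121 TPM with shNT. Hairpin 1 was highest, shNT lay between, hairpin 2 was lowest, and no group overlapped another. How common such a separation is among all genes was not counted, here or for the genes and ratios below. Between the hairpins, 40.1% of all tested genes were called. The means were 98.1 ± 4.05 TPM with hairpin 2, 151.7 ± 1.29 TPM with hairpin 1 and 122.9 ± 2.42 TPM with shNT (SD, n = 2 each). Hairpin 2 thus held 79.8% and hairpin 1 held 123% of the shNT level. In limma with Benjamini-Hochberg adjustment over 11549 genes, Muc1 was lower with hairpin 2 than with hairpin 1 by a log2 change of -0.62 ± 0.05 (SE, adjusted p = 0.000653). That call held in 17 of 17 alternative settings, with changes of -0.67 to -0.55.

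Set against shNT, Muc1 changed in opposite directions with the 2 hairpins. With hairpin 2 the limma change was -0.32 ± 0.05 (95% interval -0.44 to -0.20, adjusted p = 0.0252). With hairpin 1 it was 0.30 ± 0.05 (0.18 to 0.42, adjusted p = 0.00427). Both comparisons use the same shNT libraries. The hairpin 2 fall was not called when either hairpin 2 library was left out (adjusted p = 0.147 without the first, 0.158 without the second) or either hairpin 1 library (0.0786 and 0.0784), nor without a filter (0.0644) or with only the 2 groups fitted (0.0784), while its size stayed between -0.46 and -0.28 in all 17 alternatives. The hairpin 1 rise was not called once the short RNA entries were left out, at 0.12 (adjusted p = 0.327), or after quantile normalization, at 0.16 (adjusted p = 0.0901).

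The scaling mattered for where shNT stood, and less for the gap between the hairpins. With the short RNA entries left out, Muc1 had 133 and 122 TPM with hairpin 2, 193 and 189 TPM with hairpin 1, against 190.3 and 161 TPM with shNT. The first shNT library then lay within the hairpin 1 range, and hairpin 2 stayed below both other groups. With median-ratio scaling the values were 99.5 and 92.5 with hairpin 2, 147 and 147 with hairpin 1, and 131 and 126 with shNT, and the 3 groups stayed apart. Relative to the median change of all genes, Muc1 stood at -0.41 with hairpin 2 and 0.20 with hairpin 1, and at -0.42 and 0.18 without the short RNA entries (log2).

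**Figure D2:**
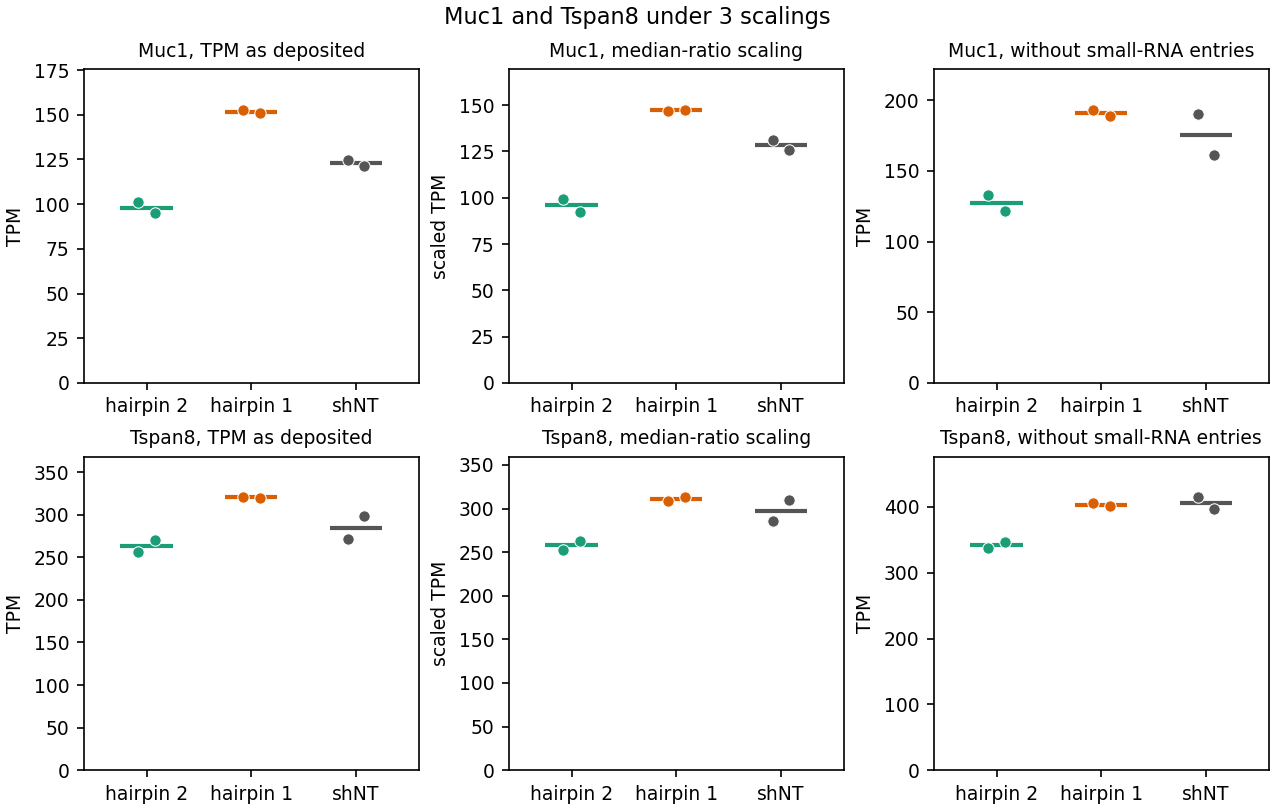
Muc1 (top) and Tspan8 (bottom) per library (points) with group means (lines), for hairpin 2, hairpin 1 and shNT, as deposited TPM, after median-ratio scaling and with short RNA entries left out. Hairpin 2 is the lowest group in all 6 panels, while the place of shNT relative to hairpin 1 shifts.

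Muc1 supplied nearly all RNA of the genes named Muc that were summed, where Muc3, Muc3a and Muc16 had no entry. Its share of the summed TPM of 10 such genes, which leaves out the mucin-like Cd164 and Podxl, was 96.6% and 96.8% with hairpin 2, 99.0% and 99.1% with hairpin 1, and 99.5% and 99.4% with shNT. The lower share with hairpin 2 went with less Muc1, more Muc5b and more Muc5ac, the secreted gel-forming mucin of gastric surface cells. Muc5b, which did not pass the filter, averaged 0.944 TPM with hairpin 2, 0.425 TPM with hairpin 1 and 0.169 TPM with shNT. Muc5ac had 2.19 and 2.16 TPM with hairpin 2, 0.972 and 0.766 TPM with hairpin 1, against 0.384 and 0.469 TPM with shNT. Its groups did not overlap, and it was higher with hairpin 2 than with hairpin 1 by 0.77 ± 0.12 on the log2 scale (SE, limma, adjusted p = 0.00533). Muc5ac passed the filter only through the 2 hairpin 2 libraries. Without a filter the adjusted p in limma was 0.0157.

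Tspan8 (chr10:115816832-115849893, plus strand) followed the order of Muc1 with smaller steps. Tspan8 had 257 and 270.2 TPM with hairpin 2, 320.3 and 320.2 TPM with hairpin 1, against 271 and 298 TPM with shNT. Hairpin 1 lay above both other groups, while the higher hairpin 2 library almost touched the lower shNT library. The means were 263 ± 9.64 TPM with hairpin 2, 320.2 ± 0.0936 TPM with hairpin 1 and 285 ± 19.1 TPM with shNT (SD, n = 2 each). Between the hairpins, limma gave a log2 change of -0.28 ± 0.06 (SE, adjusted p = 0.0180). Against shNT neither hairpin passed the test, with -0.11 ± 0.06 for hairpin 2 (95% interval -0.27 to 0.04, adjusted p = 0.269) and 0.17 ± 0.06 for hairpin 1 (0.01 to 0.33, adjusted p = 0.0683).

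The difference between hairpins in Tspan8 kept its direction in all 17 alternatives, from -0.32 to -0.20, and its call in 11. It was not called when the first or second hairpin 1 library was left out (adjusted p = 0.0977 and 0.0979), nor without the first or second hairpin 2 library (0.118 and 0.0661), without a filter (0.0722) or with each chromosome centred (0.0530). Without the second shNT library, hairpin 1 was called higher than shNT, at 0.24 (limma, adjusted p = 0.00769). With the short RNA entries left out, Tspan8 had 338 and 346 TPM with hairpin 2, 405 and 401 TPM with hairpin 1, against 414 and 397 TPM with shNT, and hairpin 1 no longer lay above shNT. Among 15 tetraspanin genes, Tspan8 took 16.4% and 16.9% of summed TPM with hairpin 2, 20.2% in both hairpin 1 libraries, and 18.9% in both shNT libraries. Cd9 was above it in every library, and Cd63 also with hairpin 2. The Tspan8 exons overlap an antisense gene, 4930422I22Rik, and whether counting used strand is not given in the sources used here.

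Gcnt3 (chr9:70031496-70038088, minus strand) was the steadiest of the expressed members. Gcnt3 had 17.1 and 18.0 TPM with hairpin 2, 19.5 and 19.1 TPM with hairpin 1, against 18.7 and 17.8 TPM with shNT. The hairpin 2 and shNT values overlapped and both hairpin 1 values lay just above them. No comparison was called by limma: the log2 change was -0.05 ± 0.05 for hairpin 2 against shNT (95% interval -0.18 to 0.08, adjusted p = 0.516) and 0.08 ± 0.05 for hairpin 1 against shNT (-0.05 to 0.21, adjusted p = 0.247). Between hairpins it was -0.13 ± 0.05 (adjusted p = 0.0960). Genes of chromosome 9 as a whole stood 0.24 below the median of all genes with hairpin 1 (log2). With each chromosome centred, Gcnt3 was called higher with hairpin 1 than with shNT, at 0.21 (limma, adjusted p = 0.0201). Of the 3 core-branching enzymes Gcnt1, Gcnt3 and Gcnt4, Gcnt3 ranked second in every library, with 27.5% to 28.2% of their summed TPM with hairpin 2, 32.6% to 33.6% with hairpin 1 and 29.7% to 30.6% with shNT.

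Ratios of members within a library do not depend on a scaling by a common factor for that library. Quantile normalization and chromosome centring can change them. Muc1 over Gcnt3 was 5.89 and 5.30 with hairpin 2, 7.81 and 7.90 with hairpin 1, and 6.67 and 6.81 with shNT, with no overlap between groups. Muc1 over Tspan8 was 0.394 and 0.352 with hairpin 2, 0.476 and 0.471 with hairpin 1, and 0.459 and 0.406 with shNT, with hairpin 2 lowest and hairpin 1 highest. Tspan8 over Gcnt3 was 15 in both hairpin 2 libraries, 16.4 and 16.8 with hairpin 1, and 14.5 and 16.8 with shNT, so that the shNT libraries spanned the hairpin 2 values. An exact test of 2 libraries against 2 cannot go below 0.333, so these ratios are given without a test.

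Ceacam1 (chr7:25461707-25477603, minus strand) stood high in one group. Ceacam1 had 0.508 and 0.183 TPM with hairpin 2, 5.63 and 5.08 TPM with hairpin 1, against 0.198 and 0.243 TPM with shNT. Both hairpin 1 libraries lay far above the other 4, whose values overlapped. The means were 0.345 ± 0.229 TPM with hairpin 2, 5.35 ± 0.387 TPM with hairpin 1 and 0.220 ± 0.0323 TPM with shNT (SD, n = 2 each), so hairpin 1 was 24.3-fold above shNT in mean TPM. The limma change for hairpin 1 was 2.38 ± 0.15 on the log2(TPM + 1) scale (adjusted p = 0.000295), which understates low genes, and 4.09 with a pseudocount of 0.1. Hairpin 2 differed from shNT by 0.13 ± 0.15 (95% interval -0.24 to 0.51, adjusted p = 0.580). Between hairpins the change was -2.25 ± 0.15 (adjusted p = 0.000461), and that call and the hairpin 1 rise each held in 16 of 16 alternatives.

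Ceacam1 passed the filter only through the 2 hairpin 1 libraries. In the limma fit of all 24493 genes without a filter, the hairpin 1 change kept its call, with adjusted p = 0.00590. Its value carries an uncertainty of counting, because 37.5% of its 31-base words occur in other genes and 36.2% in Ceacam2, its close relative. Ceacam2 itself was listed at 0.0821 and 0.0739 TPM with hairpin 2, 0.0165 and 0.0301 TPM with hairpin 1, and 0 in both shNT libraries. Ceacam2 thus stayed near 0 in all 6 libraries. The other members shared at most 0.381% of such words.

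**Figure D3:**
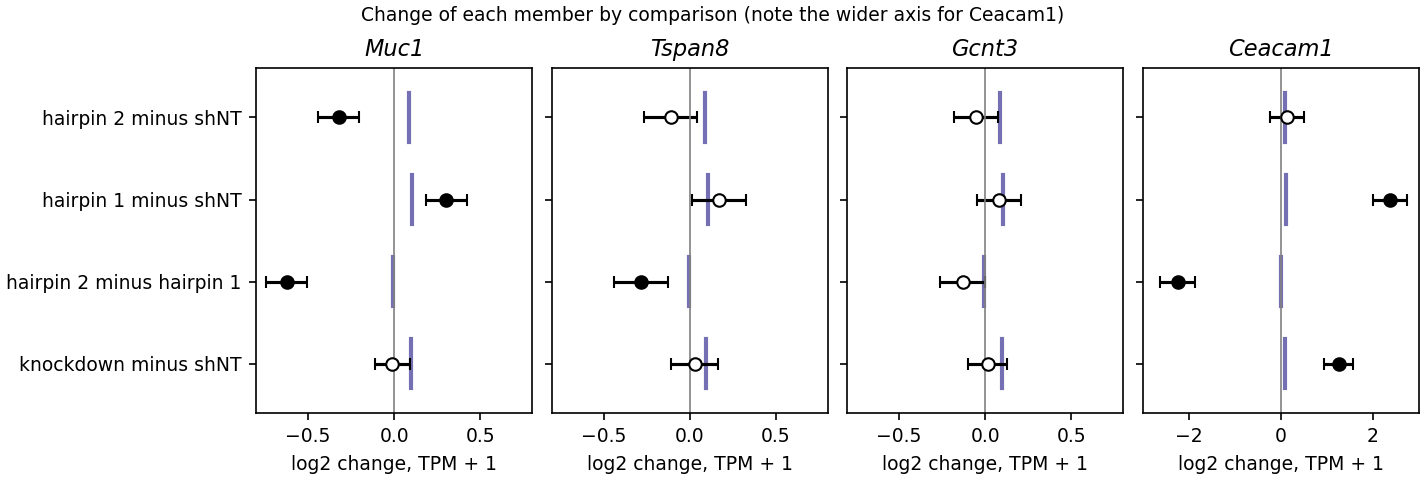
Change of each expressed member on the log2(TPM + 1) scale (points, with 95% intervals) in 4 comparisons, filled where limma called it, with the median change of all tested genes as a violet tick. The axis of the Ceacam1 panel is wider than the others, and Muc1 has filled points on opposite sides of 0 for hairpin 2 and hairpin 1 against shNT.

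The calls among the members were counted in each comparison. For hairpin 2 against shNT, 1 of the 4 tested members was called lower (Muc1) and none higher, where 9.63% of all tested genes were called, 3% lower and 6.62% higher. For hairpin 1 against shNT, 2 of 4 were called higher (Muc1 and Ceacam1) and none lower, where 50.2% of all genes were called, 32.1% higher and 18.1% lower. Between hairpins, 3 of 4 were lower with hairpin 2 (Muc1, Tspan8 and Ceacam1) and none higher, where 40.1% of all genes were called, 20.2% lower and 19.9% higher. For the mean of both hairpins against shNT, 1 of 4 was called higher (Ceacam1) and none lower, where 39.4% of all genes were called, 27.3% higher and 12.1% lower. Ceacam1 is among the 4 only because its 2 hairpin 1 libraries passed the filter. That choice favoured its calls in every comparison that uses those libraries. With 4 members, none of these counts, beside its share over all genes, is read as a result about the members.

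For Muc1, the joint comparison averaged over calls in opposite directions. Muc1 stood at -0.01 ± 0.04 (limma, adjusted p = 0.860), Tspan8 at 0.03 ± 0.05 (0.685) and Gcnt3 at 0.01 ± 0.04 (0.831). Ceacam1 stood at 1.25 ± 0.13 (adjusted p = 0.00245), a value carried by hairpin 1, and it was not called when the 4 hairpin libraries were pooled as 1 group (adjusted p = 0.363). In exact two-sided permutation tests of 4 hairpin libraries against 2 shNT libraries, whose smallest possible p is 0.133, p was 1 for Muc1, 0.8 for Tspan8, 0.8 for Gcnt3 and 0.4 for Ceacam1.

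The remaining 5 members were close to 0 in every library. Agr2 (chr12:35992907-36004087, plus strand) was listed at 0.278 TPM in the first hairpin 1 library and at 0 in the other 5. Spdef (chr17:27714352-27728955, minus strand) was listed at 0.0636 and 0 TPM with hairpin 2, 0.0292 and 0.0265 TPM with hairpin 1, against 0.1 and 0 TPM with shNT. Muc13 (chr16:33794037-33819934, plus strand) was listed at 0.0366 and 0.0325 TPM with hairpin 2, 0.0337 and 0.106 TPM with hairpin 1, and 0 in both shNT libraries. Muc13 was thus above 0 in the 4 hairpin libraries alone, at levels far under the filter. Spdef, the goblet cell factor, and Agr2, the mucin-folding isomerase, lay under the filter in the same libraries that held at least 95.2 TPM of Muc1.

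Muc4 (chr16:32735886-32782391, plus strand) reached 0.00471 TPM at most and was at 0 in 3 libraries. Muc20 (chr16:32777419-32797435, minus strand) was listed above 0 in 1 library, the first with hairpin 2, at 0.0216 TPM. Exons of Muc4 and Muc20 overlap on opposite strands. Fitted without a filter, none of these 5 genes was called by limma in any of the 4 comparisons, and none had an unadjusted p under 0.05, where 1.5% of all 24493 genes were called for hairpin 2 against shNT, 17.6% for hairpin 1 against shNT, 12.8% between hairpins and 11% in the joint comparison. At an unknown depth, an absence of these transcripts is not shown.

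**Figure D4:**
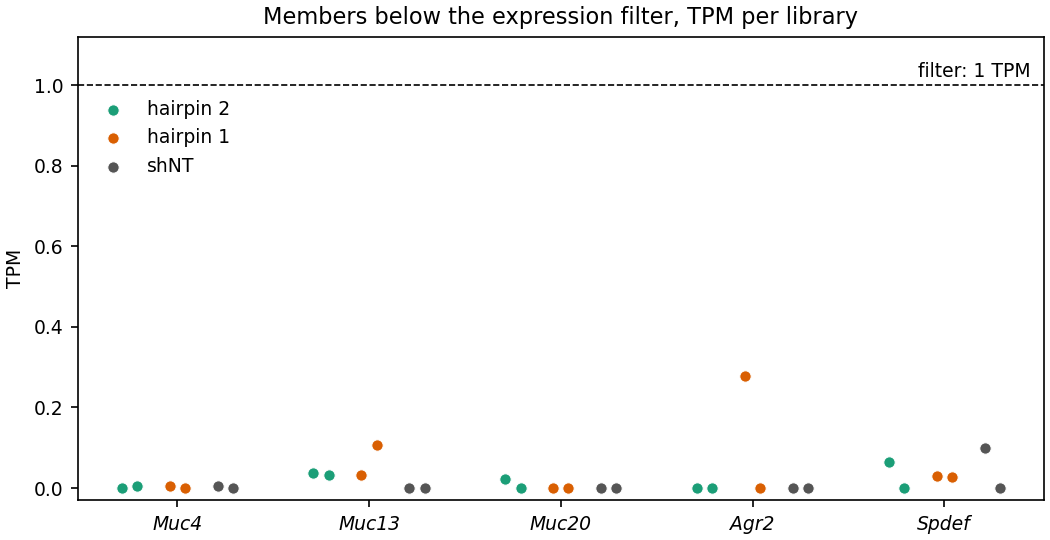
TPM of the 5 members below the filter in each library, for hairpin 2, hairpin 1 and shNT, with the filter of 1 TPM as a dashed line. The highest value is Agr2 at 0.278 TPM in 1 hairpin 1 library.

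Genes with the most similar profile over the 6 libraries were sought among 10648 tested genes by Euclidean distance between centred log2(TPM + 1) values. For Ceacam1 they were Clca3b, with 0.670, 6.86 and 0.433 TPM in the means of hairpin 2, hairpin 1 and shNT, and Lgals3bp, a secreted galectin-binding glycoprotein, with 12.1, 61.1 and 11.5 TPM. For Muc1 they were Nrip1, a nuclear receptor corepressor, with 6.26, 9.82 and 7.72 TPM, and Bdnf, with 1.41, 2.69 and 1.90 TPM. For Tspan8 they were Tex264 and Map1lc3b, and for Gcnt3 Exoc2 and Pmpcb. Distances were 0.219 and 0.335 for Ceacam1 and 0.0278 to 0.0809 for the other 3 members, and all are taken over the same 6 libraries that hold the members.

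Lists of related mucin and secretory genes were counted beside all tested genes, of which 32.1% were called higher and 18.1% lower with hairpin 1 than with shNT, and 6.62% higher and 3% lower with hairpin 2 than with shNT. Of 20 tested O-glycosylation enzymes, 10 were called higher and 6 lower with hairpin 1 than with shNT, and none was called with hairpin 2. Their median change with hairpin 1 was 0.17, beside 0.11 for all tested genes (log2). With median-ratio scaling the hairpin 1 counts were 7 and 7, and without the short RNA entries they turned to 5 higher and 7 lower. B3gnt3, which extends core O-glycans, had 143 ± 4.27 TPM with hairpin 2, 207 ± 1.87 TPM with hairpin 1 and 142 ± 5.75 TPM with shNT (SD, n = 2 each), and rose with hairpin 1 (0.54, limma, adjusted p = 0.000785). Galnt10, which starts O-glycan chains, averaged 25.6 TPM with hairpin 2, 34.8 TPM with hairpin 1 and 22.0 TPM with shNT. Podxl, a sialomucin, was lower with hairpin 1, at 24.3 TPM, than with shNT, at 43.4 TPM (-0.81, limma, adjusted p = 0.000184).

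Among 15 tested transcription factors of secretory epithelium, 8 were higher and 3 lower with hairpin 1 than with shNT, and 2 were higher with hairpin 2 than with shNT. The count for hairpin 2 was 0 without a filter, with only the groups compared, and without either library of hairpin 2 or of hairpin 1. Their median change with hairpin 1 was 0.22. Ehf and Cdx2 would not have passed the filter without the hairpin 1 libraries, which favoured a rise with hairpin 1. Without a filter the hairpin 1 counts were 7 higher and 3 lower. Cdx2, an intestinal homeobox factor, had 0.974 and 1.05 TPM with hairpin 2, 47.8 and 47.9 TPM with hairpin 1, against 0.332 and 0.126 TPM with shNT. The hairpin 1 libraries stood far apart for Cdx2, as they did for Ceacam1 (5.32 against shNT, limma, adjusted p = 1.63e-05). Foxa1, a pioneer factor of gut epithelium, averaged 4.39 TPM with hairpin 2, 10.8 TPM with hairpin 1 and 2.13 TPM with shNT. Elf3, an epithelial ETS factor, averaged 64.7 TPM with hairpin 2, 126 TPM with hairpin 1 and 62.4 TPM with shNT. Xbp1, a factor of secretory cells, averaged 25.1 TPM with hairpin 2, 48.4 TPM with hairpin 1 and 25.8 TPM with shNT. Other factors of the list had lower means with hairpin 1 than with shNT. Among them were Foxa2, at 61.4, 49.9 and 61.8 TPM with hairpin 2, hairpin 1 and shNT, Hnf4a, at 106, 96.5 and 115 TPM, and Gata4, at 36.5, 28.4 and 34.2 TPM.

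Of 17 tested cargo and granule genes, 11 were higher and 5 lower with hairpin 1 than with shNT, and 4 were higher and 1 lower with hairpin 2 than with shNT. The 4 became 1 without a filter, with only the groups compared, without either hairpin 1 library or without the second hairpin 2 library, 0 without the first hairpin 2 library, and 8 without the second shNT library. Their median change with hairpin 1 was 0.58. Clca1 and Dmbt1 passed the filter only through the 2 hairpin 1 libraries, which favoured a rise with hairpin 1. Without a filter the hairpin 1 counts were 7 higher and 3 lower, where 17.6% of all 24493 genes were called. Tff2, a trefoil peptide secreted with gastric mucus, had 15.5 and 9.05 TPM with hairpin 2, 29.9 and 26.8 TPM with hairpin 1, against 2.91 and 2.35 TPM with shNT. Lgals4, a galectin of gut epithelium, averaged 30.3 TPM with hairpin 2, 192 TPM with hairpin 1 and 19.0 TPM with shNT (3.27 for hairpin 1 against shNT, limma, adjusted p = 8.31e-06). Ctse, an aspartic protease of gastric epithelium, averaged 71.6 TPM with hairpin 2, 43.0 TPM with hairpin 1 and 120.2 TPM with shNT. Of 16 tested surface relatives (CEACAM genes, tetraspanins and binding partners), 7 were higher and 3 lower with hairpin 1 than with shNT, with a median change of 0.04. With median-ratio scaling the counts were 6 and 6 and the median -0.07. With hairpin 2, 4 surface relatives were higher and 3 lower than with shNT, and 0 were called with only the groups compared. Of 4 other genes tested from the mucin list, 2 were higher and 2 lower with hairpin 1 than with shNT (median -0.17). Without the short RNA entries the counts were 0 and 2. The 4 were Muc5ac, Cd164, Podxl and Mcam, of which only Muc5ac bears a Muc name. Mcam, called lower, kept its call in 8 of 16 alternatives and passed the filter only through the 2 shNT libraries. Cldn7, a surface relative, also passed only through shNT. Erbb3, a receptor in the family of MUC1-binding receptors, averaged 3.09 TPM with hairpin 2, 13.8 TPM with hairpin 1 and 2.64 TPM with shNT.

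The related genes named here were chosen by small p in comparisons that use the hairpin 1 libraries, so their calls with hairpin 1 are largely set by that choice. For hairpin 2 against shNT, 9 of the 28 were called and none kept the call in every alternative. Over all genes, the hairpin 2 calls dropped to 6 and 9 without the first or second hairpin 2 library, beside 1112 with all 6 libraries. The lists had been drawn up with earlier results of these data known, so their counts are descriptions.

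**Figure D5:**
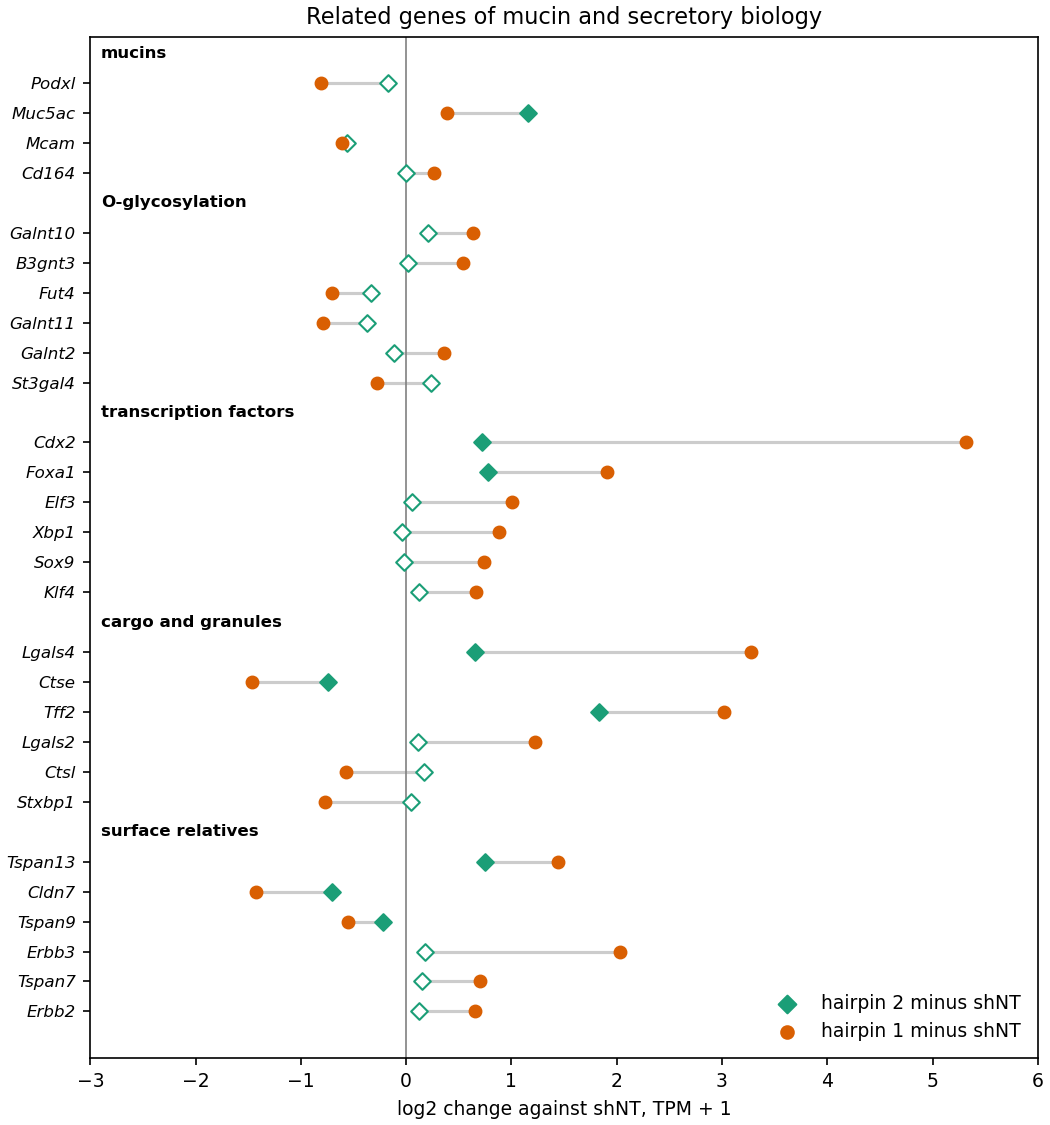
Change of the 28 named related genes against shNT on the log2(TPM + 1) scale, for hairpin 2 (diamonds) and hairpin 1 (circles), filled where limma called it, grouped by list. Cdx2 with hairpin 1, at 5.32, lies farthest from 0.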

How the data were processed

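The 6 RNA-seq libraries of KPCY cells, 2 per group, were grouped and numbered by their titles. The labels' protocols name Qiagen RNeasy for extraction and Novogene for library construction. The authors deposited TPM per gene, which sum to 1000000 per library. Salmon, DESeq2, R 3.5 and the mm10 build are named per the submitters' processing notes; what DESeq2 was used for is not given in the sources used here. TPM values were used as deposited, with no further scaling. Genes with at least 1 TPM in at least 2 libraries (11549) were tested as log2(TPM + 1) with limma 3.58.1 in R 4.3.3, with 3 group means over all libraries, a variance prior following mean expression and Benjamini-Hochberg adjustment at 0.05, two-sided. The joint comparison was the mean of both hairpin means minus shNT. The 5 members under the filter were tested in the same model without it. The model was tested on simulated data first. The 18 alternatives covered pseudocount, filter, scaling, variance prior, replicate block, groups fitted, chromosome centring and each library left out.

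Members, lists and tests were chosen with earlier results of these data known. Named related genes were, per list, up to 4 with the smallest p in the joint comparison and up to 2 more with the smallest p between hairpins; nearest genes left out members, predicted genes, clone names and small-RNA entries. Only some are printed with values, chosen after the values were seen. Positions came from GENCODE M21 (GRCm38), promoters from RefSeq (GRCm38.p6). Plots were drawn with matplotlib 3.10.9. The summed level of the tumour epithelium markers is not reported here.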

Additional observations from a re-analysis of the deposited data

Results flagged for a closer look

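The levels of 3 members differed between the hairpins, by the limma test of hairpin 2 minus hairpin 1 with Benjamini-Hochberg adjustment. Muc1 differed by -0.62 (adjusted p = 0.000653), with both hairpin 2 libraries below and both hairpin 1 libraries above the shNT libraries. Ceacam1 differed by -2.25 (adjusted p = 0.000461), with both hairpin 1 libraries above the other 4. Tspan8 differed by -0.28 (adjusted p = 0.0180), with both hairpin 2 libraries below both hairpin 1 libraries. Over all tested genes, 40.1% differed between the hairpins by the same test. The design speaks of 2 parental clones, and clone and hairpin cannot be told apart.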

How the results depend on the processing

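Between hairpins, Muc1 and Ceacam1 kept direction and call in every alternative run; comparisons with shNT depended more on scaling. The causes of the changes below were not tested.

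Members called higher with the joint comparison numbered 0, in place of 1, with a mean of at least 5 TPM (Ceacam1 then left out of the fit) and with the hairpins pooled. Members called higher with hairpin 1 than with shNT numbered 1, in place of 2, with a mean of at least 5 TPM, after quantile normalization and with small-RNA entries left out; they numbered 3 with chromosome centring (Gcnt3 added) and without shNT replicate 2 (Tspan8 added). Members called lower with hairpin 2 than with shNT numbered 0, in place of 1, without a filter and with only the groups compared, 2 after quantile normalization (Tspan8 added), and 0 to 1 with 1 library left out.

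These values changed sign. In the joint comparison Muc1, at -0.01, was 0.0096 without shNT replicate 1 and 0.0106 without hairpin 2 replicate 2 (-0.0312 to 0.0106 with 1 library left out). Tspan8, at 0.03, was -0.12 after quantile normalization, -0.0709 with median-ratio scaling, -0.13 without small-RNA entries, -0.12 with chromosome centring and -0.0386 without shNT replicate 1 (-0.0386 to 0.0978 with 1 library left out). Gcnt3, at 0.01, was -0.0693, -0.0823 and -0.14 under those first 3 scalings, -0.0202 without shNT replicate 2 and -0.0027 without hairpin 2 replicate 2 (-0.0202 to 0.047 with 1 library left out). For hairpin 1 against shNT, Tspan8 was -0.0077 without small-RNA entries and -0.022 with centring, and Gcnt3 was -0.0063, -0.0226 and -0.092 after quantile, median-ratio and small-RNA scaling. For hairpin 2 against shNT, Ceacam1 was -0.0091 with centring and -0.0442 without hairpin 2 replicate 1 (-0.0442 to 0.305 with 1 library left out), and Gcnt3 was 0.0524 with centring.

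Over all genes, 69.2% of calls in the joint comparison, 63.8% for hairpin 1 and 68.8% for hairpin 2 against shNT were higher, beside 44.6%, 48.1% and 31% with median-ratio scaling. Same-numbered libraries did not deviate together (correlations 0.02, 0.02 and -0.04 over 11549 genes). With 2 libraries per group, such values cannot show whether these libraries share more than a number. With the replicate block, hairpin 2 calls over all genes numbered 276 in place of 1112, and no member's call changed (Muc1, hairpin 2 minus hairpin 1, -0.62).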
